A study of Mus musculus with 24 samples.

Results

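The distal end of the mandible was compared with the distal end of the maxilla in control mouse embryos at embryonic day 12.5, a stage at which both jaws are prominences of mesenchyme covered by ectoderm. The arrays were taken by their titles: 3 arrays of control distal mandible and 3 of control distal maxilla, 6 of the 24 arrays of the series. The strain is labelled C57B6. The controls were littermates of embryos without Tgfbr2 in Wnt1-Cre cells, from matings of Wnt1cre;Tgfbr2fl/+ with Tgfbr2fl/fl mice. Which of the floxed and Cre alleles each control carried is not stated in the sources used here. Wnt1-Cre is active in neural crest, so mesoderm, ectoderm and endothelium of a mutant keep the gene. Cleft palate and a calvarial defect are the traits given for the mutants. The other arrays compared here are the control proximal mandible and maxilla and the knockout distal mandible and maxilla, with 3 arrays in each group. The knockout proximal mandible and maxilla arrays, also 3 a group, enter the fit of all 24 arrays but no jaw comparison. No label says whether the arrays of 1 group stem from different embryos or pools. The p-values and SEs rest on the spread within groups, taken over all 24 arrays, part of which may be technical. They can thus differ from the scatter of the 6 arrays compared.

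The mandibular bud and the maxillary bud both arise from the neural crest of the 1st pharyngeal arch. In the mandibular bud, endothelin 1 from the surface acts through its receptor on crest cells, switches on Dlx5 and Dlx6 and, through them, Hand2, and so sets lower jaw identity. The maxillary bud lacks this signal and lies next to the nasal processes, the eye and the forebrain, whose own regulators include Otx2, Lhx2, Pax6 and Six3.

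Signal is given on a log2 scale, so a difference of 1 is a doubling, and all differences are mandible minus maxilla. A gene was called where its adjusted p in limma (8 group means, 24 arrays, Benjamini-Hochberg over 14879 genes) lay under 0.05. Medians of the 6 arrays ran from 7.27 to 7.36, and the 30th percentile, used as a floor for dim signal, ran from 5.85 to 5.91. Where all 3 arrays of a jaw lay below the floor, the fold is given as a lower bound against that floor. A lower signal in whole tissue can mean fewer cells of a type or less RNA per cell, and the arrays cannot tell these apart.

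Pdgfra and Twist1, genes of mesenchyme, were bright in all 6 arrays. Pdgfra, a receptor, lay between 13.07 and 13.29, and Twist1, a transcription factor, between 12.52 and 13.17. They come from a crest mesenchyme list of 13 genes, of which 2 were called higher in the mandible and 2 lower. Their signal is thus no check of the jaw or end labels. Control maxilla distal 1 stood apart from its group. After the mean of all arrays was taken off, its profile had a mean correlation of 0.36 with control maxilla distal 2 and 3 and of 0.81 with control maxilla proximal 2 and 3. Control maxilla proximal 1 had 0.54 with its own label and 0.81 with the distal arrays 2 and 3. Each of the 2 arrays thus resembled the other end more than its own. Whether their end labels were exchanged was not tested. If they were, the distal maxilla mean and every comparison between ends would be affected. The arrays are used as labelled, and list counts and the genes that depend on control maxilla distal 1 are also given without it. Msx1, a homeobox gene of distal jaw mesenchyme, lay at 11.10 in that array and between 13.23 and 13.48 in the other 5. The 2 arrays numbered 2 also differed from the others in sex-linked genes: Eif2s3y, a Y-linked gene, read 10.41 and 10.37 in them and 3.5 to 3.81 in the other 4, and Xist read 6.5 and 6.42 against 13.75 to 13.86. Each jaw holds 1 such array, so the array numbered 2 is no technical repeat of the others of its group. Tgfbr2 itself lay between 11.28 and 12.14 in the 6 arrays, with a difference of 0.36 that was not called (adjusted p = 0.314).

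Of the 14879 genes, 985 were higher in the distal mandible (6.62% of all tested) and 1101 were lower (7.4%), together 14%. Differences were larger on the maxilla's side: the median size of a called difference was 0.65 for genes lower in the mandible and 0.38 for genes higher there. A difference of at least 1 was reached by 338 lower (2.27%) and 106 higher genes (0.712%), and one above 3 by 40 lower and 5 higher genes. With array medians centred the split turned to 1281 higher and 949 lower, so the balance of small differences depends on the scaling. Without control maxilla distal 1, 486 genes were higher and 619 lower. List counts given below without that array stand beside these smaller totals. The total of 2086 also fell to 1169 without control mandible distal 2, to 1294 without control maxilla distal 3 and to 1350 without control mandible distal 1. Without the arrays numbered 2 of the controls, 148 genes were higher and 366 lower. Called in every one of the 6 fits that left out 1 distal array were 283 higher and 443 lower genes. All 3 mandible arrays lay above all 3 maxilla arrays in 2630 genes (17.7%) and below them in 2737 (18.4%). A lack of overlap was thus common and is no test by itself.

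Hand2, a basic helix-loop-helix (bHLH) factor required for lower jaw identity, had the largest difference of the genes called. Its signal was 13.54, 13.59 and 13.52 in the mandible arrays and 5.47, 5.06 and 5.79 in the maxilla arrays. The mandible arrays were alike (SD 0.04) near the top of the scale, and all 3 maxilla arrays lay below the floor. The difference was 8.11 (SE 0.7, n = 3 arrays a jaw, limma adjusted p = 5.9e-06), at least 204-fold. Its other probe sets gave 3.38 each, also with every maxilla array below the floor. The difference was 8.12 without control maxilla distal 1.

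Neurod1 and Neurog1, bHLH factors of sensory neurons, were among the 15 genes lowest in the mandible. Neurod1 read 5.54, 6.86 and 5.16 in the mandible and 11.75, 10.66 and 10.53 in the maxilla, a difference of -5.13 (SE 0.5, limma adjusted p = 1.25e-05). Neurog1, which acts upstream of Neurod1 in sensory ganglia, read 4.0, 5.18 and 4.88 in the mandible, all below the floor, and 10.23, 9.0 and 8.63 in the maxilla, at least 10.6-fold higher in the maxilla (difference -4.6, SE 0.5, limma adjusted p = 4.15e-05). Its other probe set, with means of 6.34 and 6.42, gave -0.08. The promoters of these 3 genes are shown because they are the bHLH genes among the 30 largest differences, and bHLH factors bind the E-box, CANNTG. Each sequence is the 250 bases before the RefSeq start on GRCm38.p6, 5′ to 3′ on the gene's strand, with E-boxes in capitals. They lie at chr8:57320733-57320982 on the plus strand for Hand2, chr2:79456637-79456886 on the minus strand for Neurod1 and chr13:56252181-56252430 on the minus strand for Neurog1.
Hand2: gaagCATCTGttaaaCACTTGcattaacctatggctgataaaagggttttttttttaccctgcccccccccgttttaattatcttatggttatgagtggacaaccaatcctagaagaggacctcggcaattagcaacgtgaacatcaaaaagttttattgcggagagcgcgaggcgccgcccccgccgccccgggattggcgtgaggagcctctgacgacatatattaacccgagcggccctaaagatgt
Neurod1: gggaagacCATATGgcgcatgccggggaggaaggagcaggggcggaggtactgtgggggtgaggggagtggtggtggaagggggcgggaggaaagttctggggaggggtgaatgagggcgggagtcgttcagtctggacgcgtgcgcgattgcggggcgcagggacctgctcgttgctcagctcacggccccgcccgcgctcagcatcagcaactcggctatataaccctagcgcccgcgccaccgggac
Neurog1: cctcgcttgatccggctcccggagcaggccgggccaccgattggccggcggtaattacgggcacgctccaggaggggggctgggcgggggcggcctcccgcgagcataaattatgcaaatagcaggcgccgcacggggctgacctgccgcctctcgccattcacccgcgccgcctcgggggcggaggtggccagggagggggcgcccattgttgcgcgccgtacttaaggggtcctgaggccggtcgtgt
The Hand2 window holds 2 E-boxes, the Neurod1 window 1 and the Neurog1 window 0. TAATTA, a core that many homeodomain factors bind, occurs 1 time in the Hand2 window, 0 times in the Neurod1 window and 1 time in the Neurog1 window. Both motifs read the same on either strand and cannot overlap each other. The windows differ in base composition, with 49.2% G and C for Hand2, 67.6% for Neurod1 and 71.2% for Neurog1. Of all 32851 RefSeq windows of this length, 66.2% hold an E-box and 4.84% hold TAATTA. Windows of genes higher in the mandible held an E-box in 57.5% and windows of lower genes in 61.6%, beside 59.3% for genes tested and not called. TAATTA was in 2.86% of windows of higher genes, 2.94% of lower and 2.55% of the rest.

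**Figure D1:**
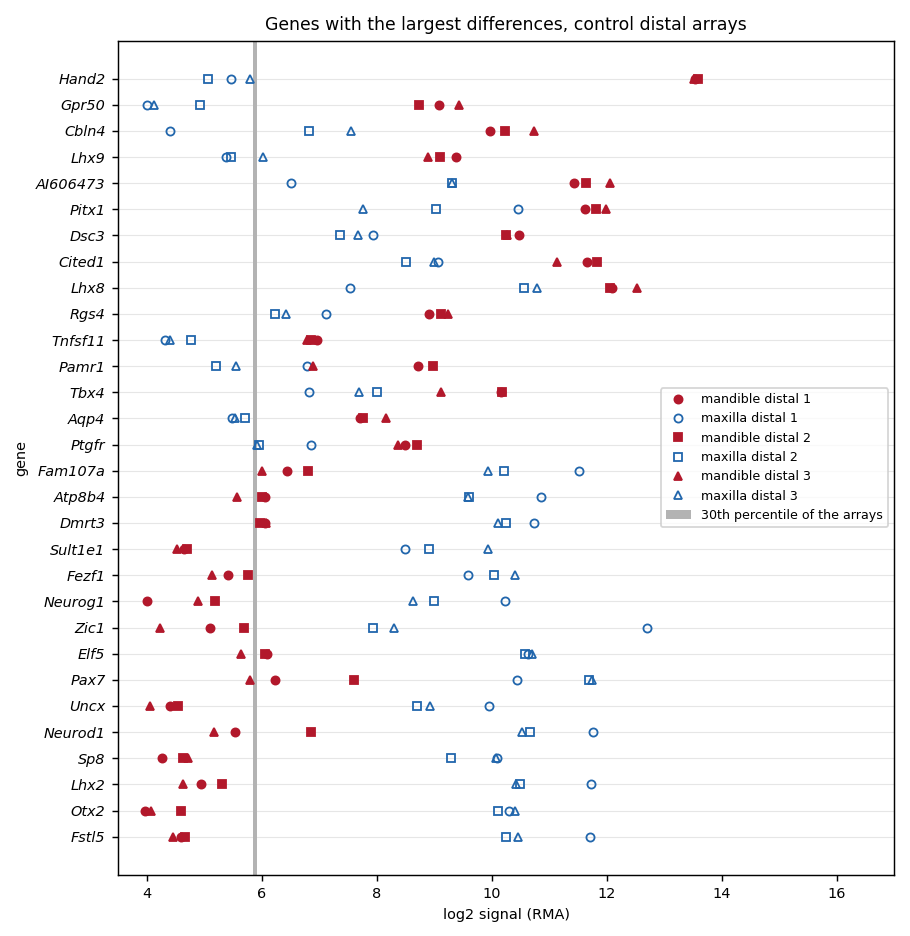
Log2 RMA signal (x axis) of the 15 genes with the largest difference each way (y axis) in the 6 control distal arrays; filled red symbols are mandible arrays, open blue symbols maxilla arrays, the symbol's shape gives the array number and the grey band the 30th percentile of the arrays. The groups of all 30 genes are apart, which held for 17.7% of all genes on the mandible's side and 18.4% on the maxilla's. Hand2 is near 13.5 in the mandible, and Zic1 is spread over the maxilla arrays from 7.94 to 12.69.

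Among the other genes highest in the mandible were transcription factors of the oral and distal jaw. Pitx1, a homeobox gene of the mandible and the hindlimb, read 11.62, 11.81 and 11.99 in the mandible and 10.45, 9.03 and 7.76 in the maxilla (difference 2.72, SE 0.49, limma adjusted p = 0.00187). Every mandible array was above every maxilla array, and the maxilla arrays differed among themselves by more than the mandible arrays did. Lhx9, a LIM homeobox gene, read 9.38, 9.1 and 8.89 against 5.38, 5.47 and 6.02, a difference of 3.5 (SE 0.85, adjusted p = 0.012). Lhx8, a LIM homeobox gene of oral mesenchyme, read 12.08, 12.05 and 12.52 against 7.53, 10.56 and 10.79. Its difference of 2.59 (adjusted p = 0.02) shrank to 1.55 and was not called without control maxilla distal 1, whose signal was the lowest. Tbx4, a T-box gene best known from the hindlimb, differed by 2.31 (adjusted p = 0.00415), and Cited1, a transcriptional coregulator, by 2.68 (adjusted p = 0.00181).

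The remaining genes of the 15 highest were of several kinds. Gpr50, an orphan receptor related to melatonin receptors, read 9.08, 8.73 and 9.43 in the mandible and 4.0, 4.93 and 4.12 in the maxilla. All its maxilla arrays lay below the floor, so it was at least 9.21-fold higher in the mandible (difference 4.73, SE 0.89, limma adjusted p = 0.00253). Its other probe set gave 0.86, with 1 maxilla array below the floor. Tnfsf11, the ligand RANKL that drives osteoclast formation, was low throughout, between 6.79 and 6.95 in the mandible and 4.32 and 4.77 in the maxilla, at least 1.98-fold (difference 2.37, adjusted p = 0.00233). Cbln4, a secreted cerebellin, differed by 4.05, Rgs4, a brake on G protein signalling, by 2.5, and Ptgfr, the prostaglandin F receptor, by 2.27. AI606473 differed by 3.33, Pamr1 by 2.35 and Dsc3, a cadherin of desmosomes, by 2.68. Aqp4, a water channel, differed by 2.3 with its brightest probe set, while its other probe sets gave 0.02 and 0.93, and it was called in 2 of the 6 fits that left out an array. Of the 15 genes, 12 were called in all of those fits. Besides Aqp4 and Lhx8 the exception was Dsc3, which was not called without control mandible distal 1 or without control maxilla distal 2.

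The genes highest in the maxilla included head and nasal regulators. Otx2, a homeobox gene of forebrain, eye and nose, read 3.97, 4.6 and 4.07 in the mandible and 10.3, 10.1 and 10.41 in the maxilla. The mandible arrays were all below the floor and the maxilla arrays were alike (SD 0.16), at least 21.0-fold higher (difference -6.06, SE 0.67, limma adjusted p = 4.61e-05). Lhx2, a LIM homeobox gene of the eye and the olfactory system, read 4.94, 5.31 and 4.63 against 11.73, 10.49 and 10.42, at least 32.0-fold higher in the maxilla. Fezf1, a zinc finger gene of the forebrain and olfactory system, was at least 17.5-fold higher there, and Sp8, a zinc finger gene of nasal and limb ectoderm, at least 15.3-fold higher. These genes were below the floor in every mandible array.

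Fstl5, a secreted follistatin-like protein, had the largest difference of the genes lower in the mandible, with 4.59, 4.66 and 4.46 in the mandible and 11.71, 10.25 and 10.45 in the maxilla (difference -6.23, SE 0.6, limma adjusted p = 1.25e-05, at least 30.3-fold). Uncx, a homeobox gene, was at least 9.93-fold higher in the maxilla, and Sult1e1, an oestrogen sulfotransferase, at least 9.36-fold. Elf5, an ETS factor of epithelia, read 6.08, 6.05 and 5.63 against 10.62, 10.57 and 10.69 (difference -4.71, adjusted p = 0.000613). Dmrt3, a doublesex-related factor, differed by -4.35, Fam107a by -4.14 and Atp8b4, a phospholipid flippase, by -4.14. Zic1, a zinc finger factor of the neural tube and midline, read 5.1, 5.68 and 4.23 in the mandible but 12.69, 7.94 and 8.3 in the maxilla. Control maxilla distal 1 was its highest array, and the difference of -4.64 became -3.12 without it. All 15 genes kept their call whichever distal array was left out.

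The lower jaw programme was described from 15 measured members of the endothelin to Hand2 axis. Of these, 4 were higher in the mandible and 0 were lower, where 6.62% and 7.4% of all genes were, and the list's median difference was 0.33 against 0.01 for all genes. Besides Hand2, the called members were Dlx5, Hand1 and Gna11. Dlx5, which acts upstream of Hand2, read 11.92, 11.98 and 12.1 in the mandible and 10.4, 11.27 and 11.22 in the maxilla. Its groups did not overlap, which held for 17.7% of all genes on the mandible's side. The difference was 1.04 (SE 0.33, limma adjusted p = 0.0423), and Dlx5 was called in 1 of the 6 fits that left out an array. Hand1, the close relative of Hand2, was dim but even, with 7.79, 7.91 and 7.8 against 6.85, 6.86 and 6.98 (difference 0.94, SE 0.15, limma adjusted p = 0.000895). Gna11, a G protein subunit that couples to the endothelin receptor, differed by 0.26 (adjusted p = 0.0166), but its other probe set, with means of 11.1 and 11.08, gave 0.02.

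The other members of the axis did not pass the test. Edn1, the ligand, read 7.33, 7.46 and 7.08 against 7.19, 6.89 and 6.8 (difference 0.33, adjusted p = 0.224), with overlapping groups. Ece1, the enzyme that matures it, differed by -0.29 (adjusted p = 0.0579), Gnaq, another G protein subunit, by -0.07, Plcb3, a phospholipase of the same pathway, by -0.12, and Mef2c, a transcription factor of the pathway, by 0.47. Dlx6 read 10.77, 10.55 and 10.65 against 9.2, 9.33 and 9.53, with no overlap and a difference of 1.3 (SE 0.44, adjusted p = 0.0577). Its antisense transcript Dlx6os1 differed by 0.48. Gsc, a homeobox gene of the lower jaw, read 11.46, 11.37 and 11.24 against 11.02, 10.11 and 8.24 (difference 1.57, SE 0.6, adjusted p = 0.089), with control maxilla distal 1 closest to the mandible and control maxilla distal 3 farthest. Dlx3 differed by -0.29, Dlx4 by 0.06 and Gbx2 by -0.09, with 2 of these 3 genes, Dlx4 and Gbx2, close to or below the floor in all 6 arrays. Without control maxilla distal 1 the count was 3 higher and 0 lower.

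The 9 measured genes of the upper jaw list held 5 that were lower in the mandible and 1 that was higher, with a median of -0.8. These shares of 55.6% and 11.1% stand beside 7.4% lower and 6.62% higher of all genes. Nr2f1, an orphan nuclear receptor that acts in the maxillary bud and the eye, read 8.47, 10.21 and 8.57 in the mandible and 12.57, 11.92 and 12.12 in the maxilla. Control mandible distal 2 was the highest of the mandible arrays and still below the maxilla (difference -3.12, SE 0.48, limma adjusted p = 0.000652). Its relative Nr2f2 read 11.26, 11.64 and 10.73 against 12.82, 12.19 and 12.13 (difference -1.17, adjusted p = 0.00553), while a dimmer probe set gave -0.1. Foxl2, a forkhead factor of the eyelid and ovary, read 7.82, 7.79 and 7.69 against 11.42, 10.62 and 8.5. The maxilla arrays of Foxl2 were spread wide, and its difference of -2.41 (adjusted p = 0.0146) was not called without control maxilla distal 1 (-1.79) or distal 2. Its other probe set was dim and gave 0.07.

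Irx3 and Irx5, Iroquois homeobox neighbours, were lower in the mandible by smaller and tighter amounts. Irx3 fell by 0.83 (SE 0.17, limma adjusted p = 0.00487) and Irx5 fell by 0.8 (SE 0.16, limma adjusted p = 0.00348). Dlx2, which acts in both jaws, was the member that was higher, at 9.99, 9.7 and 10.08 against 6.59, 8.22 and 9.13. Its difference of 1.95 (adjusted p = 0.0271) was 1.25 and not called without control maxilla distal 1, its lowest array. Dlx1 differed by 1.67 with no overlap (adjusted p = 0.0613). Pou3f3, a POU factor of the proximal upper jaw, differed by 0.26 and Jag1, a Notch ligand, by 0.08; both signs turned without control maxilla distal 1, to -0.33 and -0.04. Without that array the list had 0 higher and 4 lower members.

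Of the 5 measured frontonasal genes, Pax7 and Six2 were lower in the mandible and the Alx genes were not called. Pax7, a paired factor of nasal crest and of muscle progenitors, read 6.22, 7.6 and 5.8 against 10.43, 11.68 and 11.74 (difference -4.74, SE 0.53, limma adjusted p = 4.61e-05). Six2, a homeobox factor of frontonasal mesenchyme, read 11, 11.17 and 11.33 against 12.97, 12.71 and 12.88 (difference -1.69, SE 0.21, limma adjusted p = 0.000126), with both jaws bright. Alx1, which patterns the frontonasal skeleton, was bright in both jaws as well, at 12.34, 12.61 and 12.72 against 12.7, 12.88 and 13.12 (difference -0.34, SE 1.1, limma adjusted p = 0.876). Its SD was 0.2 and 0.21 in these 2 groups. The SE is shared over all groups, among them the knockout distal and proximal mandible with SDs of 2.99 and 2.69. Alx4 differed by 0.76 (adjusted p = 0.186) and Pax3 by 0.33 (adjusted p = 0.881). The count of 0 higher and 2 lower was the same without control maxilla distal 1. These 2 genes are 40% of the list, beside 7.4% of all genes.

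Among 12 measured genes of oral and tooth mesenchyme and epithelium, 4 were higher in the mandible and 2 were lower. These shares of 33.3% and 16.7% stand beside 6.62% and 7.4% of all genes. Besides Pitx1 and Lhx8, the higher members were Lhx6, a LIM homeobox partner of Lhx8, and Nkx2-3, a homeobox gene of the mandibular surface. Lhx6 read 9.31, 9.16 and 9.71 against 7.01, 7.71 and 6.77 (difference 2.23, adjusted p = 0.0283, called in 1 of the 6 fits that left out an array). Nkx2-3 read 8.33, 8.07 and 8.39 against 7.04, 7.09 and 7.18 (difference 1.16, SE 0.26, limma adjusted p = 0.00786). Sox2, a factor of epithelial and neural progenitors, was lower, at 9.99, 9.27 and 9.24 against 11.81, 11.3 and 11.63 (difference -2.08, SE 0.36, limma adjusted p = 0.00145). Eda, the ectodysplasin ligand of tooth and hair placodes, fell by 0.45 (adjusted p = 0.014). Msx1, Msx2, Barx1 and Pax9 were not called, with differences of 0.68, 1.2, 0.82 and -0.77. Without control maxilla distal 1 the list held 2 higher and 2 lower members.

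The T-box genes gave 3 higher and 0 lower of 8, with or without control maxilla distal 1. Tbx1, which patterns the pharyngeal arches, read 9.14, 9.08 and 9.0 against 7.89, 8.07 and 7.8 (difference 1.15, SE 0.18, limma adjusted p = 0.000828). Tbx5, known from the heart and forelimb, read 8.07, 7.83 and 7.12 against 6.54, 6.58 and 6.6 (difference 1.1, SE 0.22, adjusted p = 0.00367). With Tbx4, every mandible array exceeded every maxilla array for the 3 genes, which held for 17.7% of all genes. Of 10 forkhead genes, 0 were higher and 2 were lower, Foxc1 (-2.29, adjusted p = 0.00294) and Foxd2 (-1.78, adjusted p = 0.0172). Foxc1 acts in periocular and skull mesenchyme, and 1 forkhead gene was lower without control maxilla distal 1. Of 9 genes of the network of Eya, Dach and Six2 family factors, 3 were lower, Six2, Dach1 (-1.41) and Eya2 (-0.61), and 0 were higher, but without control maxilla distal 1 only Six2 was lower. The palate list gave 2 higher, Osr1 (1.39) and Prrx1 (1.05), and 2 lower, Mn1 (-0.76) and Efnb1 (-0.39), of 11, and 1 each way without control maxilla distal 1. Osr1 was called in 1 of the 6 fits that left out an array. Prrx1, a homeobox factor of jaw mesenchyme, was bright and even, with 13.6, 13.56 and 13.54 against 12.55, 12.76 and 12.24 (SE 0.14, limma adjusted p = 0.000296). Its other probe sets above the floor gave 0.5 to 2.15, the lowest from a bright one with means of 12.8 and 12.3. The 10 Hox genes and the 8 Meis, Pbx and Tshz genes tested had 0 calls each way. At an unadjusted level the whole comparison had 4357 genes under 0.05. Of all genes, 6.62% were called higher and 7.4% lower. Beside that, 37.5% of the T-box list was higher and 20% of the forkhead list was lower. The list with Eya, Dach and Six2 had 33.3% lower, and the palate list had 18.2% each way.

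**Figure D2:**
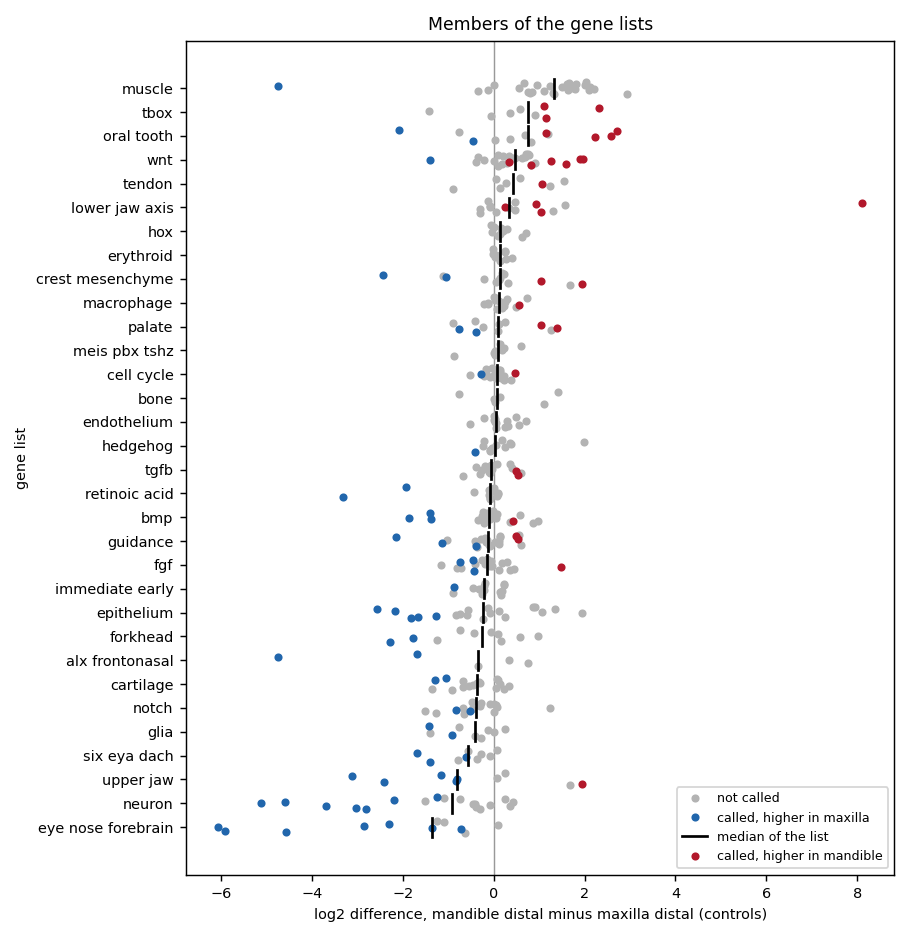
Log2 difference, mandible distal minus maxilla distal in controls (x axis), of each tested member of each gene list (y axis, ordered by median); red points are genes called higher in the mandible, blue points genes called higher in the maxilla, grey points genes not called, and black bars the median of each list. The eye, nose and forebrain list has the lowest median (-1.36) and the muscle list the highest (1.33), the latter with 0 members called higher.

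In the Wnt list, 6 of 26 genes were higher in the mandible and 1 was lower, where 6.62% and 7.4% of all genes were, and most of the higher members act outside the cell. The median was 0.46, and without control maxilla distal 1 it was 0.27, with 5 higher and 1 lower. Sostdc1, a Wnt and BMP antagonist of the tooth, read 12.09, 11.72 and 11.68 against 8.65, 10.57 and 10.37 (difference 1.97, SE 0.41, limma adjusted p = 0.00437). Frzb, a secreted Wnt antagonist of cartilage, read 11.79, 12.14 and 12.19 against 9.78, 10.94 and 10.61 (difference 1.6, SE 0.25, limma adjusted p = 0.000652). For both, control maxilla distal 1 was the lowest array, and without it the differences were 1.36 and 1.27. Sfrp4, another secreted antagonist, differed by 1.89, Rspo3, a secreted enhancer of Wnt signalling, by 1.26, Dkk2, a modulator of Wnt co-receptors, by 0.83, and Ror2, a Wnt5a receptor, by 0.33. Sfrp1, an antagonist of the same family as Sfrp4, went the other way, at 10.62, 11.33 and 10.78 against 12.85, 11.98 and 12.14 (difference -1.41, adjusted p = 0.00189). Wnt5a and Lef1, a ligand and a nuclear effector, were not called, with differences of 0.34 and 0.29.

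The retinoic acid list had 2 of 13 genes lower in the mandible and 0 higher, with or without control maxilla distal 1. Its 15.4% lower stands beside 7.4% of all genes. Aldh1a3, an enzyme that makes retinoic acid in nasal and eye ectoderm, read 6.76, 7.32 and 5.5 against 11.16, 10.24 and 8.1 (difference -3.31, SE 0.74, limma adjusted p = 0.0071). Each of its groups spanned well over a log2 unit, without overlap. Stra6, the receptor that takes up retinol, read 7.05, 7.2 and 6.35 against 9.26, 8.84 and 8.29 (difference -1.93, SE 0.3, limma adjusted p = 0.000717). Rdh10, which makes the precursor retinal, differed by 0.01, and Cyp26a1, which breaks retinoic acid down, by 0.1.

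The FGF list had 1 higher and 3 lower of 19 (5.26% and 15.8%, beside 6.62% and 7.4% of all genes). In the fit without control maxilla distal 1 it had 1 higher and 5 lower, beside 486 higher and 619 lower of all 14879 genes. Fgf18, a ligand of skeletal mesenchyme, was higher, at 9.5, 9.31 and 9.44 against 8.6, 7.68 and 7.55 (difference 1.48, SE 0.3, adjusted p = 0.00376). The feedback inhibitors Spry2 (-0.46) and Dusp6 (-0.44) and the membrane protein Flrt2 (-0.75) were lower. Fgf8, the ligand of the facial ectoderm, read 6.56, 7.63 and 6.51 in the mandible and 5.46, 9.01 and 9.68 in the maxilla, so that control maxilla distal 1 lay below and the other maxilla arrays above the mandible (difference -1.15, adjusted p = 0.447). In the BMP list, 1 of 20 was higher, Bmp5 (0.43), and 3 were lower, the modulator Bmper (-1.39), the receptor Bmpr1b (-1.86) and the target Id4 (-1.4); Bmp4 itself differed by 0.35 and was not called. These counts, 5% and 15% of the list, lie beside 6.62% and 7.4% of all genes, and without control maxilla distal 1 they were 1 higher and 1 lower. Shh, the ligand of oral epithelium, read 11.02, 11.11 and 11.25 against 7.62, 9.71 and 10.1, with no overlap, and missed the threshold (difference 1.98, SE 0.67, adjusted p = 0.0562). Of 12 hedgehog genes 0 were higher and 1, the co-receptor Boc (-0.42), was lower, and 0 were without control maxilla distal 1. That 1 gene is 8.33% of the list, beside 7.4% of all genes.

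The Notch list had 0 higher and 2 lower of 16, the target Hes1 (-0.52, adjusted p = 0.00948) and its relative Hes6 (-0.84, adjusted p = 0.00897). Hes6 was not called without control maxilla distal 1. Its 12.5% lower stands beside 7.4% of all genes. The TGF-beta list had 2 higher and 0 lower of 17, Ltbp1, which binds latent ligand in the matrix (0.54), and the signal transducer Smad2 (0.5). Its 11.8% higher stands beside 6.62% of all genes, and Smad2 was not called without control maxilla distal 1. Axon guidance genes had 2 higher, Sema3a (0.53) and Slit3 (0.5), and 3 lower, Sema3e (-2.15), Ephb1 (-1.13) and Efnb1, of 22. These shares of 9.09% and 13.6% stand beside 6.62% and 7.4% of all genes, and without control maxilla distal 1 the counts were 1 higher and 2 lower. Sema3e, a secreted guidance cue, read 6.0, 6.07 and 5.73 against 7.47, 8.25 and 8.52, so the mandible arrays sat near the floor (SE 0.35, limma adjusted p = 0.000905).

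Markers of the other tissues that a dissected jaw can hold also differed, and their part in the results above was not tested. Of 11 eye, nose and forebrain genes, 7 were lower in the mandible (63.6%, beside 7.4% of all genes) and 0 were higher. The mean signal of the list ran from 5.92 to 6.15 in the mandible arrays and from 8.01 to 8.18 in the maxilla arrays. Besides Otx2, Lhx2 and Fezf1, the called members were Pax6 (-2.85), Six3 (-2.31), Otx1 (-1.36) and Mitf (-0.71), the last a factor of pigment cells, and 6 genes were lower without control maxilla distal 1. Pax6, which specifies eye and nasal placodes, read 5.8, 5.82 and 5.64 in the mandible, all below the floor, and 9.74, 8.42 and 7.63 in the maxilla, while its other probe sets, of lower mean signal, gave -1.22 to 0.1. Six6, which is specific to retina and hypothalamus, lay below the floor in the mandible arrays and between 5.7 and 6.96 in the maxilla arrays, and was not called.

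Of 18 neuronal genes, 7 were lower in the mandible (38.9%, beside 7.4% of all genes) and 0 were higher. The list's mean signal was 7.25, 7.85 and 7.3 in the mandible and 9.41, 8.88 and 8.56 in the maxilla, without overlap. Elavl4, an RNA-binding protein of neurons, read 8.14, 8.59 and 8.18 against 12.09, 11.01 and 10.9 (difference -3.04, SE 0.42, limma adjusted p = 0.000296). Ina, a neuronal intermediate filament, differed by -3.69, Elavl3 by -2.81, Snap25, a synaptic protein, by -2.19 and Tubb3, a neuronal tubulin, by -1.24. Snap25 was not called in any of the 6 fits that left out an array and Tubb3 in 1 of them, and 5 genes of the list were lower without control maxilla distal 1. Isl1 and Pou4f1, factors of cranial sensory neurons, were not called, with differences of 0.35 and 0.42, and Pou4f1 was at or below the floor in all 6 arrays. Of 9 glial genes, Sox10 (-1.43, adjusted p = 0.00117) and Erbb3 (-0.92, adjusted p = 0.00387) were lower and 0 were higher, also without control maxilla distal 1. These 2 genes are 22.2% of the glial list, beside 7.4% of all genes.

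Of 19 epithelial genes, 5 were lower in the mandible (26.3%, beside 7.4% of all genes) and 0 were higher, with a median of -0.24. Without control maxilla distal 1, 3 were lower and the median was -0.74. Krt8, a keratin of simple epithelia, read 9.24, 8.99 and 9.08 against 11.56, 11.6 and 11.87 (difference -2.57, SE 0.61, limma adjusted p = 0.00999). Its partner Krt18 differed by -2.18, the claudins Cldn6 by -1.82 and Cldn7 by -1.66, and Epcam by -1.27. Krt14 and Krt5, keratins of the basal layer, pointed the other way without being called. Krt14 read 12.1, 11.55 and 11.68 against 8.58, 10.32 and 10.61 (difference 1.94, adjusted p = 0.0813), and Krt5 differed by 1.36 (adjusted p = 0.157). In both, control maxilla distal 1 was the lowest array, and the mean signal of the epithelial list ran from 9.49 to 9.8 in the mandible and from 9.27 to 10.37 in the maxilla. Epcam was not called in any of the 6 fits that left out an array, nor was Cldn7.

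Muscle genes varied within the mandible group. Of 27 genes, 24 had a positive difference and the median was 1.33, yet 0 were called higher and 1, Pax7, was called lower. That 1 gene is 3.7% of the list, beside 7.4% of all genes. Actc1, a sarcomeric actin, read 11.37, 13.14 and 8.74 in the mandible and 10.18, 7.22 and 7.02 in the maxilla (difference 2.94, SE 1.1, adjusted p = 0.0938). Myod1, the muscle determination factor, read 8.19, 9.96 and 6.26 against 7.33, 6.35 and 6.21 (difference 1.51, adjusted p = 0.213). Control mandible distal 2 had the highest muscle signal and control mandible distal 3 the lowest of the mandible group, and the groups overlapped. The mean over the list was 7.53, 9.52 and 6.43 in the mandible and 7.46, 6.38 and 6.37 in the maxilla.

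Cartilage genes had 2 lower and 0 higher of 17, Sox9 (-1.05, adjusted p = 0.00442) and Sox5 (-1.3, adjusted p = 0.000985), factors that drive chondrocyte formation, while Col2a1, a collagen of cartilage matrix, differed by -0.68 (adjusted p = 0.0613). The 6 bone genes had 0 calls, with Sp7, a factor of osteoblasts, at 1.42 (adjusted p = 0.0803) and Alpl at 1.1 (adjusted p = 0.101), both without overlap. In the tendon list, Mkx was higher (1.06, adjusted p = 0.00383) and 0 of 8 were lower. The 14 endothelial and 9 erythroid genes had 0 calls, and of 15 macrophage genes 1, Cd14 (0.56), was higher. The crest mesenchyme list had Dlx2 and Prrx1 higher and Tfap2b (-2.43, adjusted p = 0.00102) and Sox9 lower of 13. Of 20 cell cycle genes, the inhibitor Cdkn1c was higher (0.47) and the inhibitor Cdkn1b lower (-0.28), and of 13 immediate early genes Jun was lower (-0.87) and 0 were higher. Of all genes, 6.62% were called higher and 7.4% lower. Beside that, the cartilage list had 11.8% lower, the tendon list 12.5% higher and the macrophage list 6.67% higher. The crest list had 15.4% each way, the cell cycle list 5% each way and the immediate early list 7.69% lower. Without control maxilla distal 1, the crest list had 1 higher and 3 lower, the tendon and macrophage lists 2 higher each, the cell cycle list 1 higher and 0 lower and the immediate early list 0 calls, while the cartilage, bone, muscle, endothelial and erythroid counts were the same.

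Brightest probe sets were used, and other probe sets above the floor in all 6 arrays did not always show the difference. They gave 0.17 for Erbb3, -0.13 for Sox5, -0.04 for Spry2, -0.28 for Foxd2, 0.21 for Cdkn1b, 0.11 for Smad2, 0.14 for Ltbp1, -0.47 for Dach1 and -0.57 for Sox10. Further such probe sets gave -0.85, -1.36 and -1.47 for Sox5, 0.52 for Ltbp1 and -0.85 for Dach1, closer to the ones used. Signal of these probe sets was lower than that of the ones used.

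**Figure D3:**
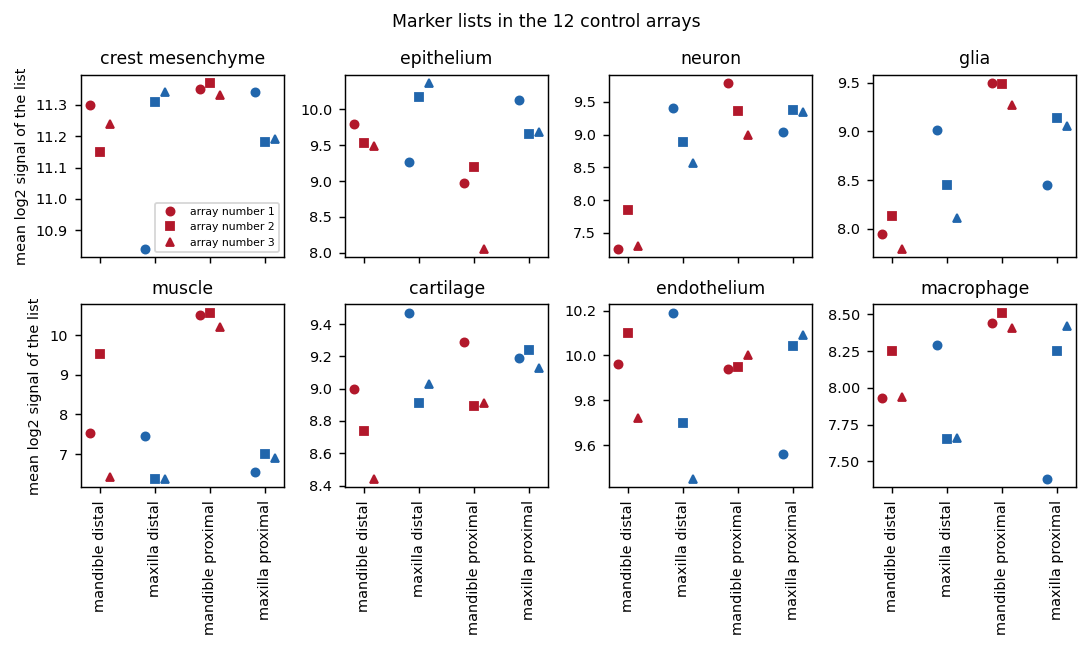
Mean log2 signal (y axis) of the measured genes of 8 marker lists in the 12 control arrays, by jaw and end (x axis); red symbols are mandible arrays, blue symbols maxilla arrays and the shape gives the array number. The neuronal list is higher in the maxilla at the distal end (8.56 to 9.41 against 7.25 to 7.85), and the muscle list is spread from 6.43 to 9.52 over the distal mandible arrays.

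The same jaws were compared at the proximal end in other arrays of the control embryos, where 1182 genes were higher in the mandible (7.94%) and 969 were lower (6.51%), 14.5% in all. Of the 985 genes higher in the distal mandible, 500 were also called higher proximally, which is 50.8% of the distal and 42.3% of the proximal calls. Of the 1101 lower genes, 542 were also lower proximally, 49.2% of the distal and 55.9% of the proximal calls. Without the arrays numbered 1 of the control maxilla, the proximal comparison called 393 higher and 628 lower. Called in opposite directions were 2 genes higher distally, Ltbr and 1810062G17Rik, and 1 lower distally, Rgs16, a regulator of G protein signalling (-0.37 distally and 0.4 proximally, named after its values were seen). Across the 14879 genes, which are not independent, the differences at the 2 ends had a Pearson correlation of 0.68. This value and the shared counts include control maxilla distal 1 and proximal 1, each of which resembled the other end more than its own. Of the 15 genes lowest in the distal mandible, 14 were called the same way proximally, and of the 15 highest, 8 were.

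The jaw difference was then compared between the ends within the fit. In limma 0 genes passed for this difference of differences (smallest adjusted p = 0.264), with 920 at an unadjusted p under 0.05. A fit to the 12 control arrays alone, whose estimate of the spread is its own, called 242. Nr2f1 had the smallest p: its difference was -3.12 distally and 0.75 proximally, a change of -3.87 (SE 0.68, limma unadjusted p = 2.03e-05, adjusted p = 0.264). Its mean was 9.08 in the distal mandible and between 12.06 and 12.81 in the other 3 control groups. Nr2f2 followed the same order, with -1.17 distally and 0.57 proximally (adjusted p = 0.264). Alx1 differed by -0.34 distally and by -6.14 proximally, where its mean was 6.56 in the mandible and 12.71 in the maxilla (change 5.8, SE 1.6, adjusted p = 0.41). Dlx4 and Gbx2, which were dim distally, were higher in the proximal mandible by 2.76 and 3.04, while Hand1 differed by 0.94 distally and 0.03 proximally.

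Masp1, a protease of the complement system, differed by 1.78 distally and 0.1 proximally, and Grin3a, a glutamate receptor subunit, by 1.18 and -0.02. Slitrk4, a neuronal membrane protein, differed by -2.52 and -0.45, and Fibin by -0.39 and 1.57. Ltbr, a lymphotoxin receptor, differed by 0.39 and -0.44 and 1810062G17Rik by 0.23 and -0.21. Each of these 6 had an adjusted p of 0.264 or 0.313 for the change between ends. The muscle list stood at a median of 4.21 proximally, with 26 of 27 genes higher in the proximal mandible, and the neuronal list at 0.09 with 4 higher and 5 lower. The Hox list had 5 of 10 genes higher in the proximal mandible and a median of 1.08, against 0 of 10 and 0.15 distally. The upper jaw list had a median of the other sign at the proximal end. It had 2 of 9 genes higher and 0 lower there and a median of 0.57, against 1 higher, 5 lower and -0.8 distally. Of all genes, 7.94% were called higher and 6.51% lower at the proximal end. These proximal list counts include control maxilla proximal 1, which resembled the distal arrays more than its own label.

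**Figure D4:**
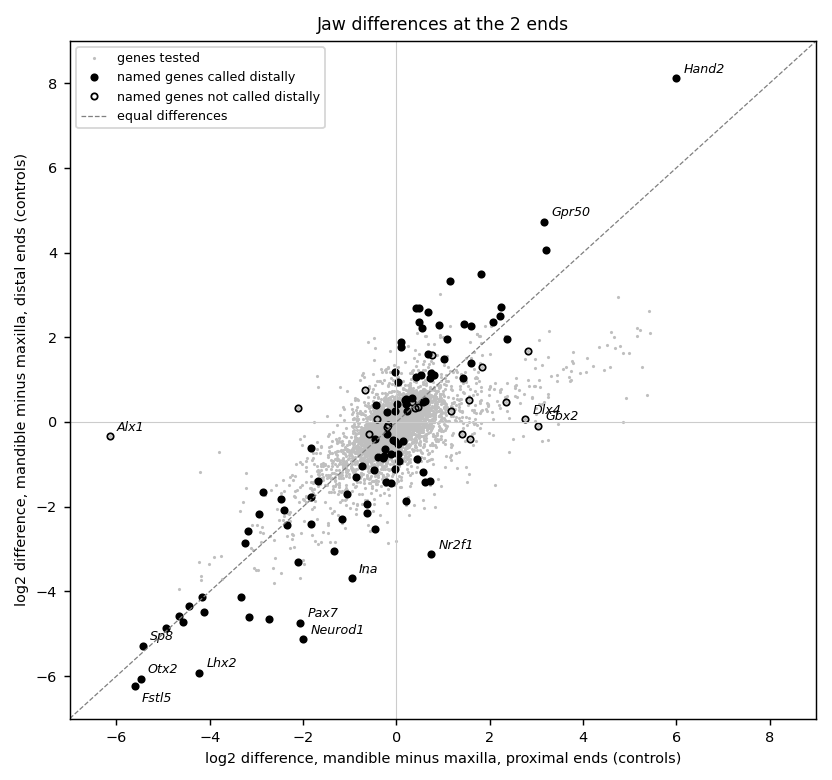
Log2 difference between mandible and maxilla in controls at the proximal ends (x axis) and the distal ends (y axis) for all genes tested (grey) and the named genes (black, filled where called distally); the dashed line marks equal differences. Hand2 lies far up on both axes, Otx2 and Fstl5 far down on both, and Alx1, at -6.14 proximally, lies near 0 distally.

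In the knockout embryos, 533 genes were higher in the distal mandible (3.58%) and 640 were lower (4.3%), 7.88% in all. Of the 985 control genes higher in the mandible, 227 were called in the knockout as well, 23% of the control and 42.6% of the knockout calls. Of the 1101 lower genes, 465 were, 42.2% and 72.7%. In opposite directions 0 genes were called, and the differences of the 14879 genes correlated with r = 0.79, over arrays that the comparisons do not share. Hand2 differed by 5.63 in the knockout (adjusted p = 0.000175), Otx2 by -5.68, Fstl5 by -5.58 and Neurod1 by -5.36. Pax7 differed by -1.79 (adjusted p = 0.0465) beside -4.74 in controls, and Nr2f1 by -0.38 beside -3.12.

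Knockout mandible distal 1 stood apart from its group. Its profile had a mean correlation of 0.33 with knockout mandible distal 2 and 3 and of 0.67 with proximal 2 and 3, and knockout mandible proximal 1 had 0.44 and 0.54 in the same order. Alx1 read 6.26 in knockout mandible distal 1 and 10.79 and 11.91 in distal 2 and 3, but 11.06 in proximal 1 and 6.16 and 6.68 in proximal 2 and 3. Whether the end labels of these arrays were exchanged was not tested. Without both, the knockout comparison called 141 higher and 342 lower genes, Hand2 differed by 6.27, Otx2 by -5.73, Fstl5 by -5.99 and Neurod1 by -5.57. Pax7 differed by -2.06 and was not called (adjusted p = 0.0689), and Nr2f1 differed by -0.77.

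For the change of the jaw difference between control and knockout, limma called 0 genes (smallest adjusted p = 0.763), with 653 at an unadjusted p under 0.05, and every alternative fit also called 0. The genes with the smallest p were Grin3a (1.18 in controls, -0.08 in knockouts), Lrba (1.11 and 0.29), Drc3 (0.43 and 0.01) and Mrpl23 (0.26 and -0.11) on the positive side. On the negative side they were Ccnb3 (0.53 and 2.81), Rsph3a (-0.63 and 0.04), Itga4 (-1.1 and 0.28) and Nr2f2 (-1.17 and 0.41). None of these is shown to change with the genotype.

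**Figure D5:**
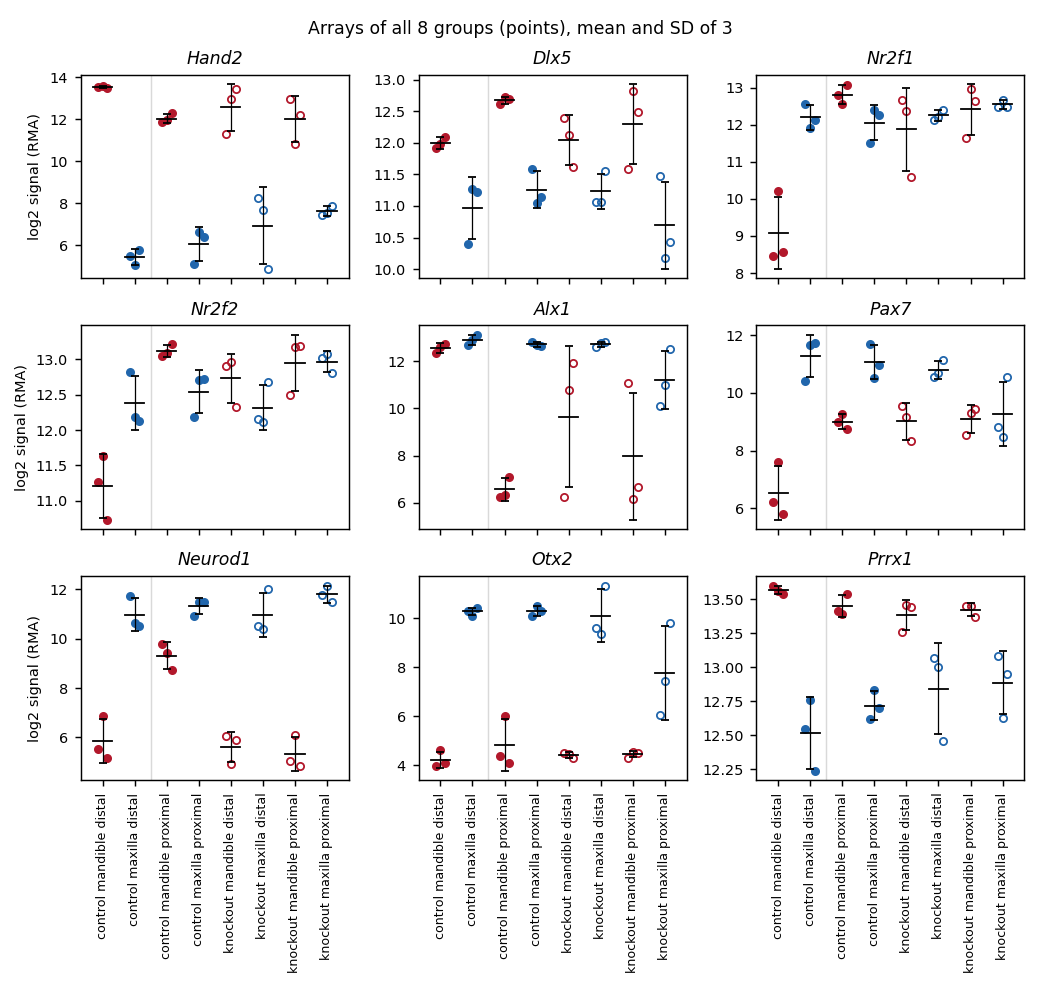
Log2 RMA signal (y axis) of 9 genes in the 24 arrays by genotype, jaw and end (x axis); red points are mandible and blue points maxilla arrays, filled for controls and open for knockouts, with the mean and SD of 3 arrays. Hand2 is at 13.52 to 13.59 in the control distal mandible, Otx2 is low in every mandible group, and Nr2f1 has its lowest mean, 9.08, in the control distal mandible.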

How the data were processed

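Biotin-labelled cRNA of each jaw end was read on a single-colour array of 45101 probe sets, 24 arrays in all. The deposited table holds log2 signal computed by the authors with RMA, per the submitters' processing notes; no version is stated in the sources used here. Values ran from 2.97 to 14.7, 0 were missing, and no further normalisation was applied. Of the probe sets, 34945 carried 1 gene symbol in the platform annotation, 932 several, 9160 none and 64 were controls; Entrez numbers of 34741 matched the RefSeq gene table. For each of 18193 genes the probe set of highest mean signal was kept (9010 genes had over 1), and 14879 genes above the 30th percentile in at least 3 arrays were tested.

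Groups of arrays follow the labelled genotype, jaw and end. Limma 3.58.1 in R 4.3.3 fitted 8 group means to all 24 arrays (16 residual degrees of freedom), with two-sided moderated tests and Benjamini-Hochberg adjustment over 14879 genes; the script was tested on simulated data. The smallest root mean square difference between 2 of the 6 arrays was 0.243. The number of arrays limits the precision. Named genes are the 15 largest called differences each way, up to 4 called members of each gene list, all members of the lower jaw, upper jaw and frontonasal lists, and for the changes of the difference the 4 smallest p each way. Other list members and the genes of the last section were chosen after their values were seen. The members and lists were chosen with earlier results of these data known. Listed genes without a named probe set were not analysed here. Promoter windows come from RefSeq (GRCm38.p6), and genes were matched by symbol, 802 of the 985 higher and 872 of the 1101 lower genes. Alternatives changed the arrays fitted, replicate block, normalisation, filter, probe sets, variance prior, weights and call rule.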

Additional observations from a re-analysis of the deposited data

How the results depend on the processing

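The count of 2086 called genes ran from 1105 to 1650 when each distal array was left out in turn, was 3288 with array weights, 444 with a difference of at least 1 required as well, and 514 (148 higher, 366 lower) without the control arrays numbered 2, which leaves 2 arrays a jaw. The other alternatives gave 1399 (only the 6 arrays; 1122 genes shared with the 2086) to 2850 (only control arrays). With the genotype and array number as a fixed replicate block the count was 2831, and as a random replicate block 2849; arrays of the same number correlated at 0.09, 0.02 and 0.34, not all above 0.1, and no label ties a number to an embryo, so the fit without a block was kept. Other values do follow the numbers: the mean of the sex-linked genes was highest in number 2 of all 4 control groups (7.33 to 7.79), and the erythroid mean in number 3 (up to 10.4). The change between ends called 0 genes, but 242 with only the groups compared or only control arrays, 394 with array weights, 35 without control maxilla 1 and knockout mandible 1, 1 with the fixed replicate block and 0 to 1 with an array left out. The change between genotypes called 0 under every alternative. Chosen after seeing the data, the knockout comparison gave 483 calls in place of 1173 without knockout mandible 1, and the proximal one 1021 in place of 2151 without control maxilla 1. The cause of these moves was not tested, beyond the fewer arrays fitted. Of the named genes, Dlx4 (-0.04), Jag1 (-0.04) and Pou3f3 (-0.33) turned sign without control maxilla distal 1, also when knockout mandible 1 was left out with it; Gbx2 became 0.05 without control mandible distal 1 and 0.01 without control maxilla distal 3, and Gnaq 0.02 without the control arrays numbered 2. With each distal array left out in turn, Dlx4 ran from -0.04 to 0.2, Jag1 from -0.04 to 0.17, Pou3f3 from -0.33 to 0.6 and Gbx2 from -0.22 to 0.05. None of these 5 genes was called.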

Other observations

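Ranks beyond the 15 largest differences held further genes of the same comparison, chosen after their values were seen. Dlk1, a membrane protein of immature mesenchyme, read 13.53, 13.69 and 12.98 in the distal mandible and 11.69, 11.03 and 10.7 in the distal maxilla (difference 2.26). Mab21l2, a gene of eye and jaw mesenchyme, read 12.36, 12.36 and 12.44 against 9.26, 11.05 and 10.69 (difference 2.06), so control maxilla distal 1 was the lowest array. Cxcl14, a chemokine of epithelia, read 12.67, 12.27 and 12.72 against 8.34, 11.33 and 11.79 (difference 2.07), again with that array lowest, and without it differed by 1.0 and was not called (limma adjusted p = 0.223). Vgll2, a cofactor of TEAD factors, differed by 2.14, and by 1.49 without that array (limma adjusted p = 0.192). Irx2, an Iroquois gene, differed by 2.04, and Cxcl14, Vgll2 and Irx2 were each called in 2 of the 6 fits that left out an array, while Irx3 and Irx5 were lower in the mandible.

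On the maxilla's side, Gata2, a zinc finger factor, read 8.39, 8.38 and 8.32 in the mandible and 11.68, 12.39 and 12.12 in the maxilla (difference -3.7). Olig1, a bHLH factor of the glial lineage, read 6.1, 6.03 and 5.86 against 11.22, 9.4 and 9.19 (difference -3.94). Insm1 and Nhlh2, factors of differentiating neurons, differed by -3.45 and -3.57, and Slc17a6, a vesicular glutamate transporter, by -3.41. The antisense transcripts Foxl2os and Six3os1 differed by -3.69 and -3.64, beside -2.41 for Foxl2 and -2.31 for Six3. Dmrta2, a relative of Dmrt3, differed by -3.35.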
